A study of Bos taurus with 16 samples.

Results

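The secreted ribonucleases considered here are RNASE1, RNASE4, RNASE6 and angiogenin (ANG), members of the RNase A family. A probe of the array was taken as a member if its gene name, or the symbol in brackets in its description, was that of a member. All 4 genes were found among 19806 gene names, on 5 of 21475 probes, because ANG stood on 2 probes. CD14+ cells were sorted by flow cytometry from the interplacentomal endometrium, freed with collagenase, and from the mononuclear cells of the heart blood of 4 pregnant cows, untreated as far as the labels say, killed at an abattoir. The cows were at day 164 (animal 1), day 239 (animal 2), day 242 (animal 3) and day 248 (animal 4) of pregnancy. RNA of both tissues of an animal was amplified and hybridized together, in different dyes, on 2 Agilent bovine arrays. The dyes were swapped between the arrays in 3 of the 4 animals. In animal 3 blood was in Cy3 and endometrium in Cy5 on both arrays, so that dye and tissue cannot be told apart in its ratios. No endometrium of cows that were not pregnant is part of the comparison, and age and breed of the cows are not given in the sources used here.

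RNase A family proteins are small secreted enzymes, held together by disulfide bonds, that cut RNA outside cells and in vesicles. RNASE1, the pancreatic type, degrades double- and single-stranded RNA in extracellular fluid, and ruminants carry close copies of its gene, the seminal ribonuclease (SRN) and the brain ribonuclease (BRB). Angiogenin has weak activity toward most RNA, stimulates growth of blood vessels and cuts transfer RNA in stressed cells. RNASE4 prefers to cut after uridine, and in mammals its gene shares promoters with ANG. RNASE6 is made by monocytes and macrophages and can kill bacteria.

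Which transcripts the probes named ANG detect was examined first. The array gives the name ANG to a probe with accession NM_173891, which the RefSeq gene table of assembly ARS-UCD2.0 assigns to BRB. The description of the second probe also names ANG, but its accession, NM_001040590, belongs to RNASE4 in that table and is shared with the RNASE4 probe. The RNASE1 probe carries NM_001014386, listed there under LOC282340 with RNASE1 as a synonym. No probe carried NM_001078144, the accession of ANG itself in that table. In the reference order, SRN is followed by BRB, and RNASE1, RNASE6, RNASE4, ANG and ANG2 follow each other with no other protein-coding gene between them. The span of ANG lies inside that of RNASE4. The 60 bases of the NM_173891 probe, of the SRN probe and of the ANG probe under NM_001040590 are shown as the array's files give them, because these probes decide what is called ANG. Capitals mark bases that are equal in the first and second sequence when the second is shifted by 10 bases without gaps.
ANG NM_173891: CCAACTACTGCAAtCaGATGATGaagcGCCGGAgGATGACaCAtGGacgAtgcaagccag
SRN NM_181810: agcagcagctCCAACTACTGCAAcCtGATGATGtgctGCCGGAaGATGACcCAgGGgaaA
ANG NM_001040590: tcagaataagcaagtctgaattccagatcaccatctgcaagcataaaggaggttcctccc
In that alignment 38 of 50 bases (76.0%) were equal. In the following, the first is called the BRB/ANG probe and the third the ANG/RNASE4 probe. Each name joins the symbol on the array with that of RefSeq. Which transcripts these probes detect was not tested, so the names do not settle which of them, if any, measures angiogenin. Values of the BRB/ANG probe cannot be credited to angiogenin by name. Whether the BRB/ANG and SRN probes detect each other's transcripts was not tested.

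The labeled cell type was compared with its markers before any ratio was read. Values are log2 normalized intensities, each the mean of the 2 arrays of an animal, and probes that were never well above background had a median of 5.99 and a 99th percentile of 6.12 on this scale. CD14, the antigen of the sort, stood at 14.24 in the blood cells of animal 1 and at 6.30, 7.63 and 6.69 in those of animals 2 to 4. In the endometrial cells it was 12.17, 6.41, 8.14 and 6.82 in animals 1 to 4. CD14 was thus far above background in both tissues of animal 1, and between 6.30 and 8.14 in both tissues of the others. CD3E, a subunit of the T cell receptor complex, had the opposite order, with 7.19 in the blood cells of animal 1 and 12.32, 11.26 and 12.50 in those of animals 2 to 4. In endometrial cells CD3E was 8.81, 13.43, 12.96 and 12.25. The median level of 13 blood monocyte markers was 13.36 in the blood cells of animal 1 and between 6.64 and 7.90 in those of the others. These transcripts went against the label in the blood cells of animals 2 to 4, as did CD14 in their endometrial cells. In endometrial cells of animals 1 to 4 the median of the same 13 markers was 10.86, 7.36, 8.14 and 9.03. The median of 16 tissue macrophage markers was 14.16, 8.24, 9.75 and 10.33 there, and 9.27, 6.60, 7.27 and 7.10 in blood cells. Both medians lay above the 99th percentile of 6.12 in every animal, in blood cells as well as in endometrial cells. The monocyte median in the endometrial cells of animal 2, 7.36, lay within the range of 6.64 to 7.90 in the blood cells of animals 2 to 4. The study checked the sorted cells by flow cytometry for CD14 protein and recorded most cells of both tissues as positive, a measure not analysed here. Ratios of the members are given with and without animal 1. Because cells were measured in bulk, fewer cells of a type and less RNA per cell cannot be told apart.

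RNASE1 had a larger ratio of endometrium over blood in animals 2 to 4 than in animal 1. Its level in blood cells was 6.31, 6.31, 8.47 and 6.81 in animals 1 to 4. Its level in endometrial cells was 7.34, 9.22, 14.75 and 12.33 in the same order. Blood cells of animals 1 and 2 were close to background, and the endometrial cells of animals 3 and 4 were far above every blood value, whereas those of animal 1 lay below the blood cells of animal 3, so that the groups overlapped. The log2 ratio within animals was 1.04, 2.91, 6.28 and 5.52, with a mean of 3.94 (SE 0.92, n = 4) or 15.3-fold. This SE and those that follow are limma's, moderated over all tested probes. The 4 ratios alone gave an SE of 1.21. The p of limma adjusted over all tested probes was 0.262. Without animal 1 the mean ratio was 4.90 (limma, adjusted p = 0.419). From the authors' normalized values the log2 ratios of animals 1 to 4 were 3.27, 5.73, 6.54 and 6.54. The size of the ratio in animal 1 thus depended on the processing.

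RNASE6 was higher in endometrial than in blood cells of every animal, by less in animal 1 than in the others. It stood in blood cells at 14.30, 9.06, 10.02 and 8.77 in animals 1 to 4. In endometrial cells it stood at 15.25, 10.86, 13.56 and 13.05. Both tissues of animal 1 exceeded all other samples, and within every animal the endometrial value was the higher. The log2 ratios were 0.95, 1.80, 3.54 and 4.28, with a mean of 2.64 (SE 0.60, n = 4), or 6.25-fold. The adjusted p of limma was 0.262. Without animal 1 the mean ratio was 3.21 (limma, adjusted p = 0.419).

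The BRB/ANG probe and RNASE1 had the largest mean ratios of the members. The BRB/ANG probe led over all 4 animals, and RNASE1 led without animal 1, in the authors' values and in the processed signal. The level of the BRB/ANG probe in blood cells was 11.14, 7.61, 7.13 and 6.45 in animals 1 to 4. Its level in endometrial cells was 15.35, 9.39, 11.67 and 12.87. The endometrial cells of animal 1 were the highest of the 8 samples, and the blood cells of animal 1 were higher than the endometrial cells of animal 2. The log2 ratios were 4.22, 1.77, 4.54 and 6.42, with a mean of 4.24 (SE 0.74, n = 4), or 18.9-fold. The adjusted p of limma was 0.242. Without animal 1 the mean remained at 4.25 (limma, adjusted p = 0.419).

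The ANG/RNASE4 and RNASE4 probes had smaller ratios that followed each other closely. The ANG/RNASE4 probe stood at 12.07, 6.09, 7.06 and 6.34 in blood cells and at 13.44, 6.23, 10.08 and 9.18 in endometrial cells of animals 1 to 4. The RNASE4 probe stood at 12.65, 6.37, 7.45 and 6.62 in blood cells and at 13.35, 6.34, 10.08 and 10.10 in endometrial cells. Both were high in animal 1 in either tissue and close to background in both tissues of animal 2. The log2 ratios of the ANG/RNASE4 probe were 1.37, 0.14, 3.03 and 2.83, with a mean of 1.84 (SE 0.54, n = 4), or 3.59-fold. The adjusted p of limma was 0.267. Those of RNASE4 were 0.70, -0.03, 2.64 and 3.49, with a mean of 1.70 (SE 0.64, n = 4), or 3.24-fold. The adjusted p of limma was 0.311. RNASE4 was thus higher in endometrial cells of 3 of 4 animals, and the other 4 probes in 4 of 4. Without animal 1 the mean ratios were 2.00 and 2.03 (limma, adjusted p = 0.419 for both).

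**Figure D1:**
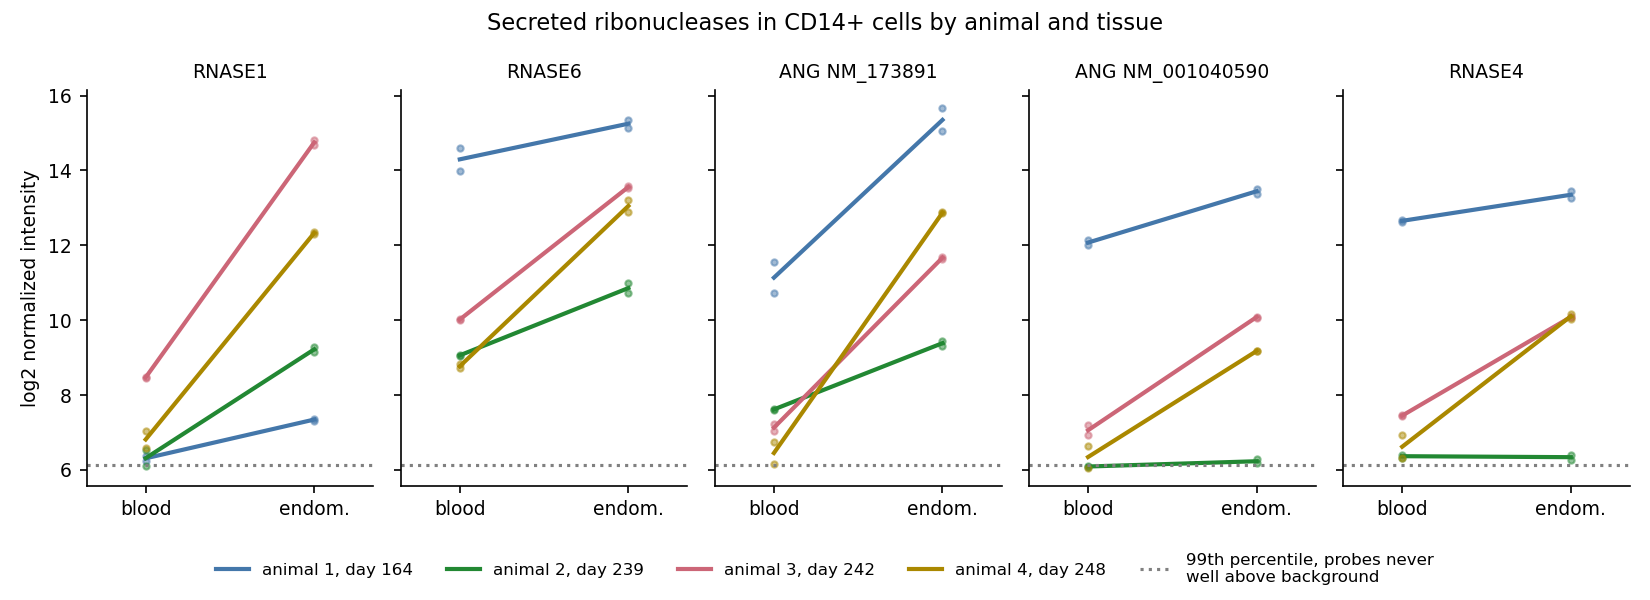
Log2 normalized intensity (y axis) of the 5 member probes in blood and endometrial CD14+ cells (x axis). Points are the 2 technical replicates, lines join the means of an animal, and the dotted line is the 99th percentile of probes never well above background (6.12); all lines but that of RNASE4 in animal 2 run upward, and animal 1 is highest in every panel but that of RNASE1.

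Calls required that limma's adjusted p did not exceed 0.05 and that the change was more than 2-fold. None of the 5 member probes was called, where 11 of 16653 tested probes were (0.0661%), and all 11 were higher in endometrial cells. With the unadjusted p held to the same 0.05 and the same fold, 5 of 5 member probes were higher in endometrial cells, beside 878 of 16653 tested probes (5.27%). At this threshold the methods' analysis of variance passed 3 of 5, beside 2.32% of tested probes. Without animal 3 it was passed by 3 of 5, beside 3.13%, and without animal 4 by 3 of 5, beside 6.15%, and in both cases not by the ANG/RNASE4 and RNASE4 probes. Without the pairing by animal it was passed by 2 of 5, the BRB/ANG probe and RNASE1, beside 3.10%. The median log2 ratio of the member probes was 2.64 and that of all tested probes -0.02. By log2 ratio the BRB/ANG probe ranked 18, RNASE1 ranked 23, RNASE6 ranked 136, the ANG/RNASE4 probe 359 and RNASE4 444 of the 16653 tested probes. Of all tested probes, 10.2% were higher in endometrial cells of 4 of 4 animals. With only 4 animals, swapping tissue labels within animals gives an exact 2-sided permutation p no smaller than 0.125.

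Whether the members with the largest ratios were called depended on the processing. From the authors' normalized table, the mean log2 ratio of RNASE1 was 5.52 (limma, adjusted p = 0.0135) and that of the BRB/ANG probe 5.25 (limma, adjusted p = 0.0480). The fit to those values called 224 probes.

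**Figure D2:**
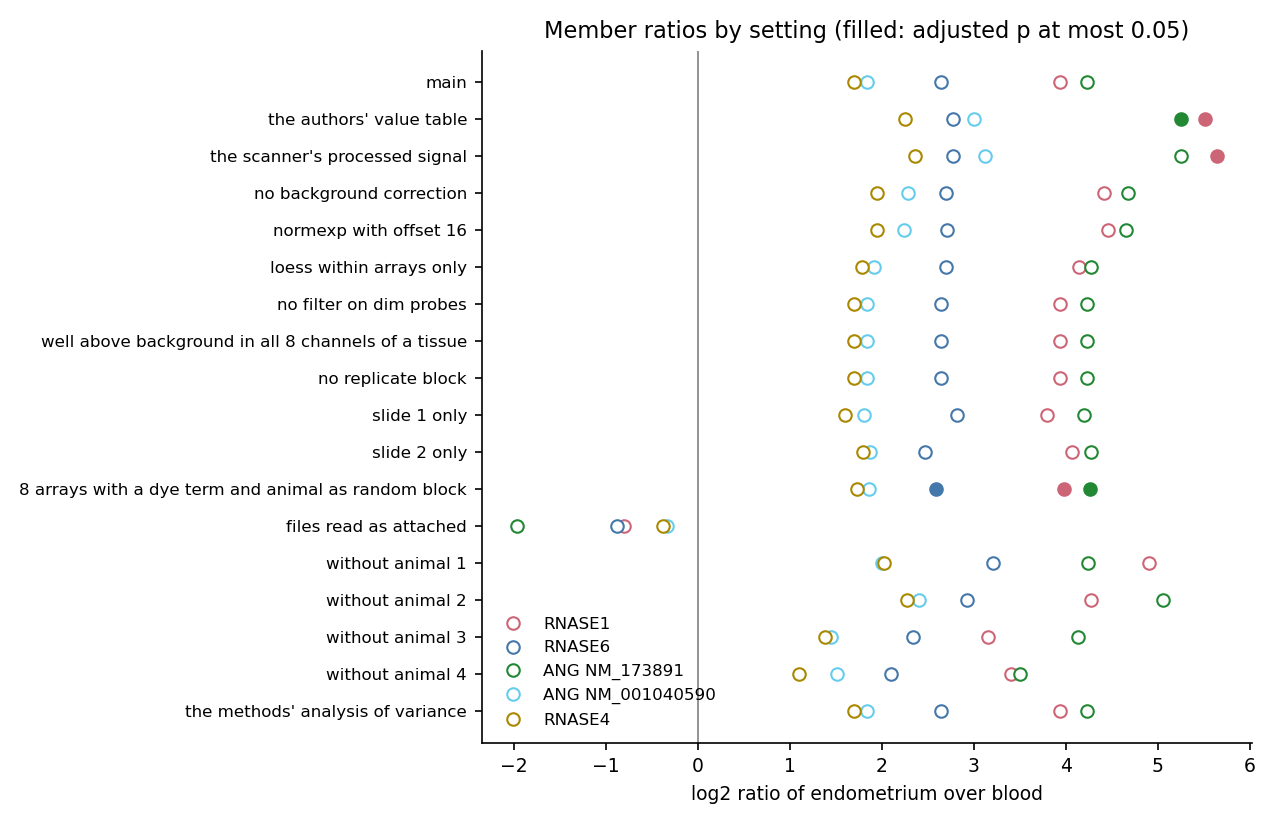
Mean log2 ratio of endometrium over blood (x axis) of the 5 member probes under each processing setting (y axis). Filled circles mark called probes (adjusted p not above 0.05, more than 2-fold), seen under 3 settings; ratios lie above 0 under every setting but that in which each scanner file is read as attached to its sample, which exchanges the technical replicates.

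The BRB/ANG and ANG/RNASE4 probes, which RefSeq assigns to different genes, had ratios of different size. Within animals, the log2 ratio of the BRB/ANG probe exceeded that of the ANG/RNASE4 probe by 2.84, 1.63, 1.52 and 3.59, with a mean difference of 2.39 ± 1.00 (SD, n = 4; 2-sided exact permutation test, p = 0.125, the smallest it can give). The ANG/RNASE4 probe differed from the RNASE4 probe by 0.67, 0.17, 0.39 and -0.65, with a mean of 0.15 ± 0.57 (SD, n = 4; 2-sided exact permutation test, p = 0.625). Over the 8 means of animal and tissue, Pearson's r was 0.993 between the ANG/RNASE4 and RNASE4 probes and 0.862 between the BRB/ANG and ANG/RNASE4 probes. RNASE6 correlated with these 3 probes at 0.936 to 0.949, and RNASE1 with the other members at 0.08 to 0.34. These correlations describe 8 values that share 4 animals and 8 arrays. Among the endometrial samples RNASE1 was lowest in animal 1, where every other member was highest.

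For each member, the genes with the most similar levels were sought among the tested probes with a RefSeq symbol, again by Pearson's r over the 8 means. RNASE1 was most like MEP1B, a membrane metalloprotease (0.996), PRLR, the prolactin receptor (0.995), and FOLR3, a folate receptor (0.994). RNASE6 was most like RNF217 (0.989), CSF1R, the receptor of macrophage colony-stimulating factor (0.988), and FABP5, a fatty acid binding protein (0.978). RNASE4 was most like CD163, the scavenger receptor for haptoglobin and hemoglobin (0.992), ITSN1 (0.991) and SIRPA, a receptor of myeloid cells that binds CD47 (0.985). The BRB/ANG probe was most like CRYL1 (0.984), FCGRT, the neonatal Fc receptor (0.961), and MSR1, the macrophage scavenger receptor (0.958). None of these genes was called, and the log2 ratio of MSR1, 3.00 (SE 0.31), had an adjusted p of 0.0814 with limma.

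**Figure D3:**
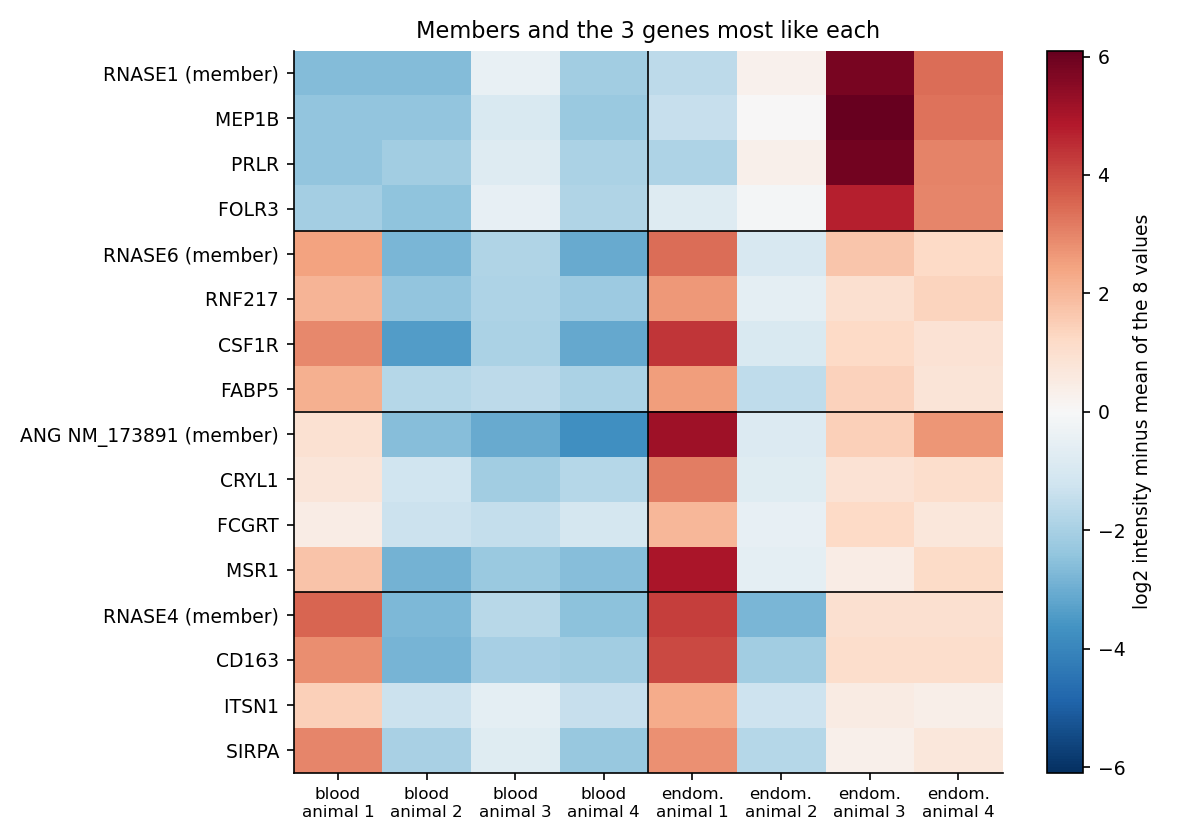
Log2 normalized intensity minus its mean over the 8 samples (color) of 4 member probes and the 3 genes most like each (rows) in blood and endometrial cells of animals 1 to 4 (columns). RNASE1 and its 3 genes are highest in the endometrial cells of animal 3 and low in both tissues of animal 1; the other members and their genes are high in both tissues of animal 1.

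Other genes of the RNase A family on the array were represented by 6 probes, of which 3 were tested, none was called and 2 were higher in endometrial cells at the unadjusted threshold. SRN stood at 6.59, 6.29, 6.93 and 6.11 in blood cells and at 7.63, 6.68, 11.06 and 8.63 in endometrial cells of animals 1 to 4. Its log2 ratios were 1.04, 0.38, 4.13 and 2.52, with a mean of 2.02 (SE 0.65; limma, adjusted p = 0.276). SRN was highest in the endometrial cells of animal 3, like RNASE1, with which its r over the 8 means was 0.920, against 0.523 with the BRB/ANG probe that its sequence resembles. RNASE12 had log2 ratios of 0.37, 1.25, 2.68 and 0.66, with a mean of 1.24 (SE 0.43; limma, adjusted p = 0.289). LOC517093, which the array describes as similar to RNASE4, had 8 of 8 blood channels and 1 of 8 endometrial channels well above background, with a mean log2 ratio of -0.28 (SE 0.20; limma, adjusted p = 0.546). The probes of RNASE10, of LOC539741 (RNASE13 in RefSeq) and of LOC538679, described as similar to ribonuclease 7, were not well above background in enough channels to be tested.

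**Figure D4:**
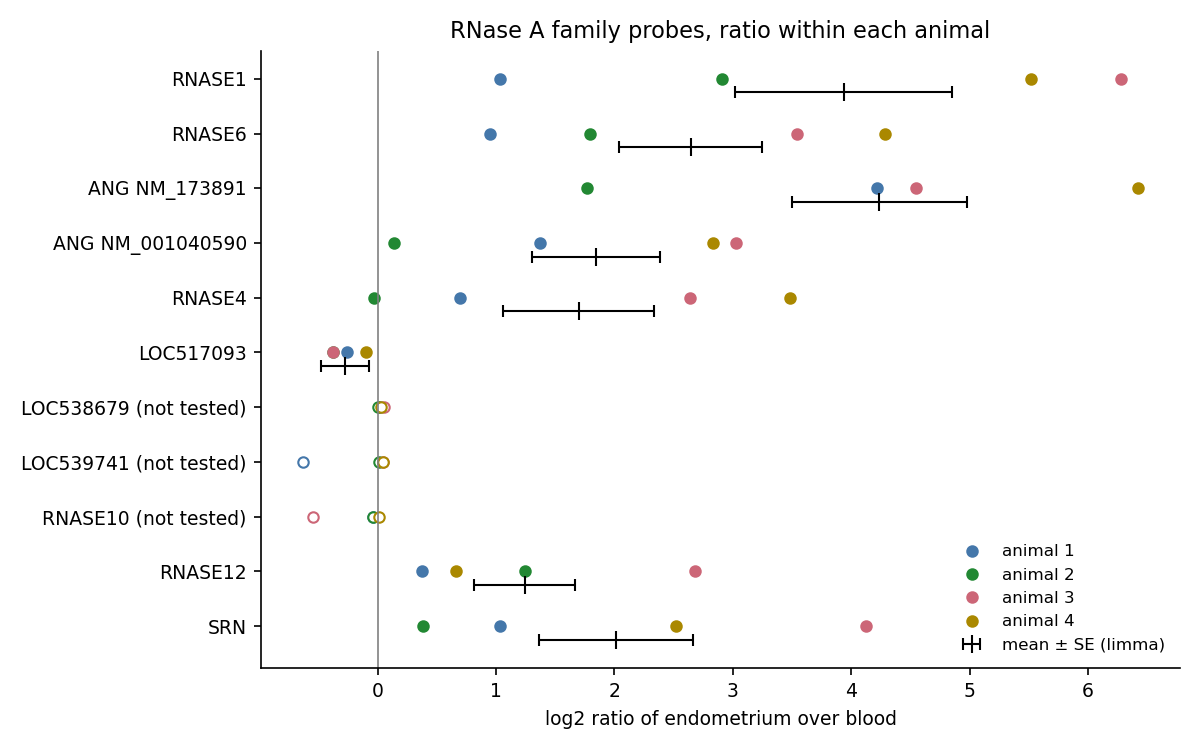
Log2 ratio of endometrium over blood (x axis) within each animal (points) for the 5 member probes and 6 further RNase A family probes (y axis), with the limma mean and SE for tested probes. All 4 animals lie above 0 for RNASE1, RNASE6, both ANG probes, RNASE12 and SRN, and below 0 for LOC517093; open points belong to probes that were not tested.

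Of the inhibitor, receptors and binding partners of these enzymes, none of 5 tested genes was called, none passed the unadjusted threshold in either direction, and their median log2 ratio was 0.15. RNH1, the cytosolic inhibitor that binds RNase A enzymes very tightly, had log2 ratios of 0.69, 1.33, 1.39 and -0.12 in animals 1 to 4 (mean 0.82, SE 0.33; limma, adjusted p = 0.327). PLXNB2, the plexin that acts as a receptor of angiogenin, had a mean ratio of 0.15 (SE 0.28; limma, adjusted p = 0.842). FBLN1, a fibulin of the extracellular matrix, had the highest mean ratio of the list, 1.90 (SE 1.01; limma, adjusted p = 0.420), which rested on 5.80 in animal 1. FST, follistatin, had the lowest, -0.40 (SE 1.04; limma, adjusted p = 0.894), with animals from -4.05 to 2.39. EGFR, the epidermal growth factor receptor, was not tested because it was dim.

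Ribonucleases of other families were set beside the members. Of 33 tested genes, 12 were higher in endometrial cells, where 47.4% of all tested probes were, none was called, and the median log2 ratio was -0.30. At the unadjusted threshold 1 was higher and 3 were lower in endometrial cells, beside 5.27% and 5.11% of all tested probes. The highest was RNASEN, the nuclear microRNA processing enzyme now named DROSHA, at 1.16 (SE 0.35; limma, adjusted p = 0.270). The lowest were AGO2, the slicer of RNA interference, at -2.61 (SE 0.59; limma, adjusted p = 0.262), and ZC3H12A, which degrades cytokine messenger RNA, at -2.49 (SE 0.57; limma, adjusted p = 0.262). RNASET2, a secreted and lysosomal ribonuclease of another fold, had a mean ratio of -0.12 (SE 0.36; limma, adjusted p = 0.912). Among 11 sensors of RNA, 4 were higher in endometrial cells, the median was -0.20, none was called, and at the unadjusted threshold none was higher and 1 was lower. TLR3, the endosomal receptor of double-stranded RNA, was highest at 0.82 (SE 0.27; limma, adjusted p = 0.278), and OAS1, which senses the same RNA in the cytosol, was lowest at -1.57 (SE 0.63; limma, adjusted p = 0.330).

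Marker lists of the cell types that either sort could hold were set beside these ratios. Of 16 tissue macrophage markers, 14 were higher in endometrial cells, with a median log2 ratio of 2.50 and with 4.10, 0.88, 2.39 and 2.96 in animals 1 to 4. The sum of the normalized intensities of that list lay between 7114 and 24325 in blood cells and between 8678 and 267856 in endometrial cells. All 19 epithelial markers were higher in endometrial cells, with a median of 1.76 and with 2.06, 1.17, 3.80 and 0.71 in animals 1 to 4, and their sum lay between 3104 and 5353 in blood cells and between 21123 and 139128 in endometrial cells. For 16 tested trophoblast markers the median was 2.47, with 1.78, 2.20, 2.92 and 2.35 in animals 1 to 4. Of these, 15 were higher and 5 were called, GATA3, which T cells also express, was lower, and the sum of the list lay between 1986 and 2811 in blood cells and between 16600 and 51898 in endometrial cells. For 14 tested stromal markers the median was 1.65, with 4.90, -0.04, 1.27 and 0.66 in animals 1 to 4, and the sum lay between 1585 and 3810 in blood cells and between 1642 and 113182 in endometrial cells. The 16 endothelial markers had a median of 0.34, with 0.66, -0.21, 1.01 and -0.01 in animals 1 to 4 and 13 higher in endometrial cells, and a sum between 2178 and 3156 against 2428 to 11839. All 7 tested B cell markers were lower in endometrial cells, with a median of -1.70, and 13 T and NK cell markers had a median of 0.51. The median was -0.67 over 12 tested blood monocyte markers, -0.03 over 6 granulocyte markers and 0.45 over 5 erythrocyte and platelet markers. Of the markers in these lists, CDH5 and ESAM of endothelium and PRP3, PAG17 and PAG21 of trophoblast were not well above background in any blood channel, CDX2, GCM1 and TEAD4 of trophoblast and CAMP, CATHL1 and CATHL4 of granulocytes in any channel of either tissue, and PF4 of platelets in any endometrial channel. The part of these cell types in the ratios of the ribonucleases was not tested.

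**Figure D5:**
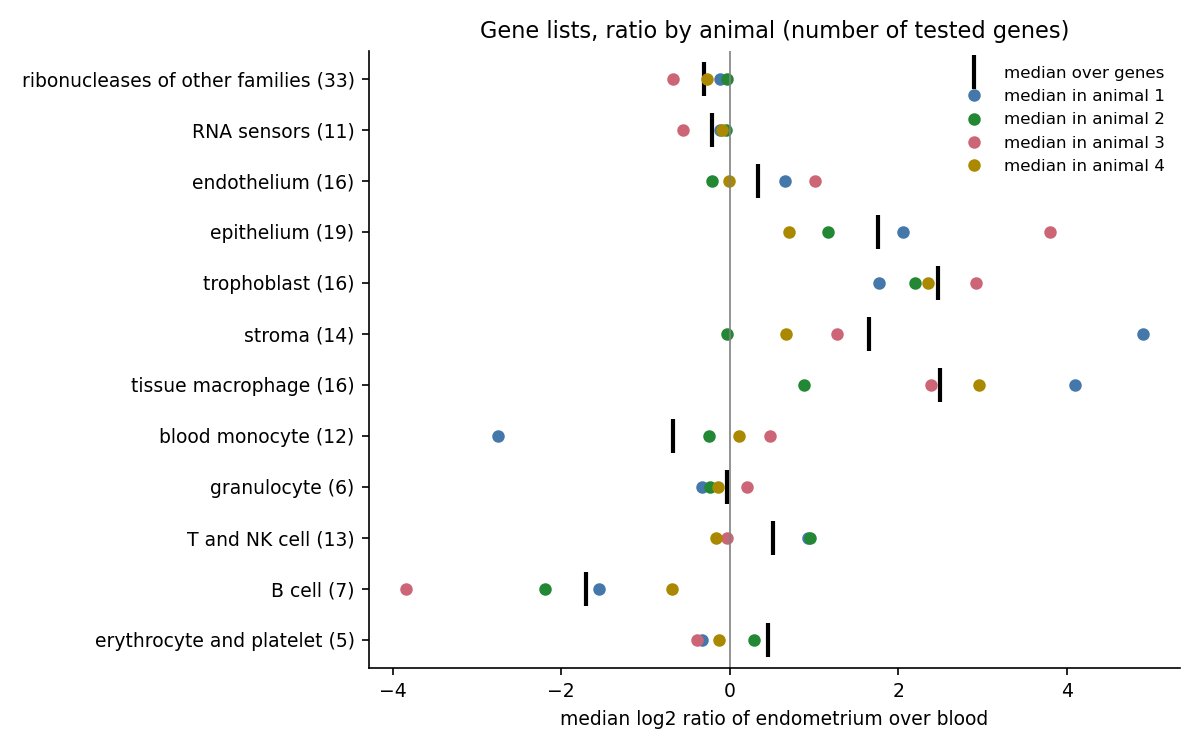
Median log2 ratio of endometrium over blood (x axis) for lists of ribonucleases, RNA sensors and cell type markers (y axis, number of tested genes in brackets), over genes (bars) and in each animal (points). Tissue macrophage, trophoblast and epithelial lists lie above 0 in every animal, B cell markers below 0, and the blood monocyte list at -2.75 in animal 1 and between -0.24 and 0.47 in the others.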

How the data were processed

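RNA of CD14+ cells from endometrium and blood of 4 cows was measured on 8 Agilent arrays with 2 colors (16 samples, 8 for each tissue). The authors deposited scanner files that hold the median intensity of each spot and its background per dye, without normalization, and log2 values normalized by lowess within arrays and quantiles over channels, in a table for the series. The labels' processing notes name version 9.5 of Feature Extraction, and the file headers 10.5.1.1. The scanner software's processed signal of each dye was ranked, and each rank was given the value of that rank in a column of the table. All 16 columns of the table then equaled, at 100% of probes within 0.001, a dye of a scanner file. In every case this was their labeled dye in the file listed under the animal's other technical replicate, and files were read that way. The table exchanges the 2 spots of part of the probes, so the match was made on probe means.

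Intensities were corrected by normexp (offset 50), normalized by loess within arrays and quantiles over the channels, and averaged over the spots of a probe, using limma 3.58.1 in R 4.3.3. Control and outlier spots were left out. Probes well above background in at least 4 of 8 channels of a tissue were tested. The log2 ratio of each animal, the mean of its 2 arrays, was tested against 0 with lmFit and eBayes, with p adjusted by Benjamini and Hochberg over all 16653 tested probes. SEs are those of eBayes, moderated over all tested probes. From the 4 ratios alone the SE was 1.21 for RNASE1, 0.77 for RNASE6 and 0.96 for the BRB/ANG probe. It was 0.68 for the ANG/RNASE4 probe and 0.82 for RNASE4. The fit was tested on simulated data. Median intensities of channels lay between 48.0 and 402.75, 65.2% to 82.9% of spots were well above background, and no spot was saturated. The number of animals limits precision, and p values of the fit to the 4 ratios measure the spread between 4 animals, moderated over all tested probes.

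Tissues were paired by the animal number in the labels. Across probes, the deviations of both tissues from their tissue means correlated at 0.62, 0.36, 0.21 and 0.46 within animals 1 to 4. Members and gene lists were chosen with earlier results of these data known. Named genes are all member and RNase A family probes; RNH1, PLXNB2, RNASET2 and the highest and lowest of each further list; the 3 genes most like each member by its brightest probe; CD14, CD68 and markers. ZC3H12A, CD3E and the deoxyribonucleases were named after their values were seen. A gene of a list was taken by its brightest probe. The trophoblast entry PAG1, a symbol that on the array names another gene, was replaced by PAG1B, pregnancy-associated glycoprotein 1, after values were seen. Gene names were updated from RefSeq's table of ARS-UCD2.0, whose start and end positions were used only for the gene order and the spans. Alternatives changed background, normalization, filter, pairing, slides, dye and block terms, animals and the test.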

Additional observations from a re-analysis of the deposited data

Results flagged for a closer look

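The level of the ANG/RNASE4 probe in blood cells was marked because animal 1 stood far from the others. Its value of 12.07 lay above 6.09, 7.06 and 6.34 in animals 2 to 4, and the gap to the nearest of these made up 0.838 of the range, above Dixon's 95% critical value for 4 samples. Of 15 sets of 4 values examined, 1 was marked, and chance marks about 1 in 20. CD14 in the same blood cells was 14.24 in animal 1 and 6.30 to 7.63 in the others. The part of that difference in the marked value was not tested.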

How the results depend on the processing

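Of 17 alternatives, 3 called a member probe. The authors' table called 2 (BRB/ANG 5.25, RNASE1 5.52), the scanner's processed signal called 1 (RNASE1 5.65), and a fit to the 8 arrays with the dye as a term and the animals as a random block called 3 (BRB/ANG 4.26, RNASE1 3.99, RNASE6 2.59). That last fit takes the 2 arrays of an animal as units, with a correlation shared by all probes. Its p values thus do not measure the spread between animals alone. The scanner files read as attached to their samples, which exchanges the technical replicates and with them the dyes of 3 animals, gave negative log2 ratios of -1.97 for BRB/ANG, -0.33 for ANG/RNASE4, -0.38 for RNASE4, -0.80 for RNASE1 and -0.87 for RNASE6. With each animal left out in turn the ratios lay between 3.51 and 5.06, 1.45 and 2.41, 1.102 and 2.27, 3.15 and 4.90, and 2.10 and 3.21 in the same order, and 0 member probes were called. In the fit without the animals as a replicate block, that is without the pairing, the ratios were 4.24, 1.84, 1.70, 3.94 and 2.64 with limma adjusted p between 0.412 and 0.778, and 0 were called. The number of all probes called was 11, and 224 with the authors' table, 171 with the processed signal, 50 without background correction, 66 with an offset of 16, 5 with loess alone, 5 without the filter, 44 with a filter of 8 channels, 4 without the pairing, 5 and 20 on the first and second slide, 792 with the dye term (455 higher in endometrium), and 0 with an animal left out, with the files as attached and with the methods' analysis of variance, which had 387 higher and 300 lower at an unadjusted p. Apart from the files as attached, every alternative kept all 5 ratios above 0. Dim signals limit the ratios of RNASE1 and of the ANG/RNASE4 probe, each well above background in 6 of 8 blood channels. The BRB/ANG and RNASE4 probes were well above background in 8 of 8 blood channels, but also had blood values near 6.12. These were 6.45 in animal 4 for BRB/ANG, and 6.37 in animal 2 and 6.62 in animal 4 for RNASE4. Causes were not tested.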

Other observations

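Enzymes that cut DNA were looked at beside those that cut RNA, a choice made after the values were seen. Of 13 probes of deoxyribonucleases, 10 were tested, 7 of these were higher in endometrial cells, the median log2 ratio was 0.13 and none was called. TATDN2 was lower in endometrial cells of all 4 animals, at -3.13, -1.15, -1.68 and -0.81 (mean -1.69, SE 0.43; limma, adjusted p = 0.262). DFFB, the nuclease that cuts DNA between nucleosomes in apoptosis, was higher in all 4, at 0.26, 1.69, 1.59 and 0.38 (mean 0.98, SE 0.35; limma, adjusted p = 0.293). DNASE2, the lysosomal enzyme of phagocytes, had a mean of -0.10 (SE 0.37; limma, adjusted p = 0.931), and DNASE1L3, secreted by macrophages and dendritic cells, had 0.90, 0.43, 1.88 and -0.08 in animals 1 to 4 (mean 0.78, SE 0.37; limma, adjusted p = 0.374).

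CD68, a lysosomal protein of macrophages, stood at 10.97, 6.95, 7.66 and 7.64 in blood cells and at 12.93, 6.83, 9.03 and 9.94 in endometrial cells of animals 1 to 4 (mean log2 ratio 1.37, SE 0.44; limma, adjusted p = 0.276). Like CD14, it was highest in both tissues of animal 1.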
